A study of Mus musculus with 24 samples.

Results

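The genes described here encode the proteins of the cytosolic ribosome, together with their near relatives of which Rpl3l is the one known from striated muscle. They were taken by name: a symbol of Rpl or Rps followed by a number and at most a short suffix, plus Rplp0, Rplp1, Rplp2, Rpsa and Rpl3l, leaving out symbols marked as pseudogenes. The rule found 89 of the 55401 genes in the table. Of these, 77 are core subunit genes (31 of the small subunit, 43 of the large subunit and 3 of the acidic stalk) and 6 are paralogs of a core gene (Rpl3l, Rpl7l1, Rpl10l, Rpl22l1, Rpl39l and Rps27l). The remaining 6 carry ordinary symbols but are annotated as pseudogenes (Rpl6l, Rpl32l, Rps3a2, Rps3a3, Rps4l and Rps12l1).

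The study sequenced total RNA, depleted of ribosomal RNA, in 3 tissues (left ventricle, a skeletal muscle and kidney) from 8 mice of the strain C57BL6/J. Of the mice, 4 were 16.5 weeks old and 4 were 86 weeks old, with 2 females and 2 males at each age, and each mouse gave a library from all 3 tissues. No genotype or treatment is named, the muscle is not identified and the sampled region of the kidney is not given. With 24 libraries, the comparisons asked here are between tissues, between the ages within a tissue, and between the sexes within a tissue. Each replicate is 1 mouse, so the p-values measure the spread between these mice.

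A ribosome joins a small subunit, which reads the mRNA, to a large subunit, which forms the peptide bonds, and most core proteins are present in a single copy per ribosome. The mRNAs of these proteins begin with a run of pyrimidines, the terminal oligopyrimidine motif, through which mTOR signalling sets their translation as a group. Some core proteins have a second gene, and the product of that gene can take the same place in the ribosome. Rpl3, a large-subunit protein that reaches towards the peptidyl transferase centre, is the best known case, since its paralog Rpl3l is made in heart and skeletal muscle.

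Rpl3l lies on chromosome 17 (GRCm38, chr17:24727820-24736143, plus strand) and Rpl3 on chromosome 15 (chr15:80077791-80091868, minus strand). Their coding sequences were identical at 898 of 1209 aligned bases (74.3%), with a longest identical run of 22 bases, the measure of how well reads of the pair can be told apart. The first 120 coding bases of both are shown to make this visible, 5′ to 3′, from the GENCODE transcripts, with the 31 bases that differ in capitals.
Rpl3: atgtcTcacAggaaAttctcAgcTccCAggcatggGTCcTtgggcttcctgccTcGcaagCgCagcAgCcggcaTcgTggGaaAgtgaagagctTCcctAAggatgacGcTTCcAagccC
Rpl3l: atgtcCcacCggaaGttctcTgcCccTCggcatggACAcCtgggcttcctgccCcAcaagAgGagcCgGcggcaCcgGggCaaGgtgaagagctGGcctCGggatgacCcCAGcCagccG
The other paralog pairs shared between 59.3% (Rpl7 and Rpl7l1) and 85.3% (Rpl39 and Rpl39l) of their aligned coding bases. Copies elsewhere in the genome are a further limit. Of the 83 protein-coding members, 78 had at least 1 copy of 95% identity or more over 100 bases, with a median of 5 copies and as many as 60 for Rpl21. Among these protein-coding members, reads that the authors' counting gave to such copies made up a median of 7.56% of the counts of a member and its copies together, and at most 34.5%. Among the members annotated as pseudogenes the share was 92.4% for Rps12l1, 84.5% for Rpl6l, 84.3% for Rps3a3 and 46.6% for Rps3a2, so the counts of these 4 are uncertain. These copies leave out the coding genes Rps12, Rpl6 and Rps3a1, which held 212902, 221611 and 291535 counts over all libraries. With them the shares of these 4 would be higher. Rpl3 had 7 copies, while Rpl3l, Rps27l and Rps4l had 0.

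The promoters of 64 of the 89 members were found in RefSeq (GRCm38.p6), and 4 of them are shown because they carry a pyrimidine run at or near the annotated start. The sequences run from 30 bases before to 30 bases after the start, 5′ to 3′ on the gene's strand, with each CTTTC in capitals. The same window of Rps27l is shown beside Rps27 because it holds none.
Rpl35, chr2:39005102-39005161, minus strand: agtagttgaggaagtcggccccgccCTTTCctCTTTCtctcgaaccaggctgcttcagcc
Rps27, chr3:90213619-90213678, minus strand: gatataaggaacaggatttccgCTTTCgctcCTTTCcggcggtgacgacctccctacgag
Rpl38, chr11:114668550-114668609, plus strand: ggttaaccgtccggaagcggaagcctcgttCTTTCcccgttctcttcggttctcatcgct
Rpl4, chr9:64173357-64173416, plus strand: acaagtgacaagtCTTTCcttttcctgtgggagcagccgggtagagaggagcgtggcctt
Rps27l, chr9:66946056-66946115, plus strand: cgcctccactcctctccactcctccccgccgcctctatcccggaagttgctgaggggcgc
On the gene's strand, CTTTC was in this window of 22 of 67 core promoters (32.8%, from 57 genes with some having more than 1 start), and in 7.93% of all 32851 windows of that length. CCGGAAG, the recognition sequence of the ETS factors, was on either strand in 37.3% of the core promoters and in 8.86% of all promoters, over 300 bases. CANNTG, the E-box that myogenic factors recognise, was rarer in core promoters (50.7%) than in all promoters (72.3%). These are matches of letters and show no binding.

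The Rpl3l promoter is shown at greater length, from 150 bases before to 30 bases after the start, because Rpl3l had the largest differences between the striated tissues and kidney. It held 4 matches to CANNTG, in capitals, and no CTTTC. The same stretch at a second Rpl3l start (chr17:24732535-24732714), not shown, held 2 matches and no CTTTC. The share of all promoters given above is over 300 bases, so it is no comparison for these counts.
Rpl3l, chr17:24727676-24727855, plus strand: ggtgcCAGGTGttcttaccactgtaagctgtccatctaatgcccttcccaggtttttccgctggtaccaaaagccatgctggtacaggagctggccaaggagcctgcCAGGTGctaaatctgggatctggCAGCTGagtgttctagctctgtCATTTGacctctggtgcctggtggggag

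Total counts ranged from 52.6 M to 103.8 M per library. Levels are given in CPM, counts set to a common library total after TMM scaling, which corrects for differences in RNA composition. The correction was sizeable, with mean factors of 1.01 in left ventricle, 0.813 in muscle and 1.23 in kidney. A pair of libraries stood apart, the muscle of 86-week mouse 17 (factor 1.04, other muscle libraries 0.728 to 0.820) and the kidney of 86-week mouse 11 (factor 1.51, other kidney libraries 1.11 to 1.32), and counts and named values that leaving them out moved are given without them too. Each tissue carried its own markers, with cardiomyocyte genes summing to at least 38973 CPM in every left ventricle library, skeletal fibre genes to at least 118401 CPM in every muscle library and tubule genes to at least 9784 CPM in every kidney library. The muscle of 86-week mouse 17 also held 455 CPM of the 5 cardiomyocyte markers, against 10.9 to 19.4 CPM in the other muscle libraries. In bulk tissue, fewer cells of a type and less RNA per cell cannot be told apart.

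Rpl3l was a major ribosomal protein transcript of both striated tissues and close to absent from kidney. In left ventricle its lowest, median and highest levels were 129.8, 154.7 and 203.6 CPM over the 8 mice. Skeletal muscle gave 231.1, 316.2 and 369.3 CPM. Kidney gave 0.816, 1.05 and 1.85 CPM, from 61 to 145 counts per library. The 3 ranges did not overlap. On the log2 scale, Rpl3l was lower in left ventricle than in muscle by 0.99 ± 0.09 (SE; 1.98-fold; edgeR quasi-likelihood test, adjusted p = 1.55e-09). It was higher than in kidney by 7.12 ± 0.12 in left ventricle (139-fold, adjusted p = 1.59e-24) and by 8.10 ± 0.13 in muscle (275-fold, adjusted p = 1.37e-25).

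Rpl3 ran in the opposite order. Its lowest, median and highest levels were 109.0, 133.5 and 154.9 CPM in kidney. Left ventricle gave 45.0, 53.0 and 71.9 CPM. Muscle gave 13.2, 20.3 and 23.6 CPM. Again no ranges overlapped between tissues. Rpl3 was 2.87-fold higher in left ventricle than in muscle (log2 difference 1.52 ± 0.11, adjusted p = 9.28e-12) and 2.41-fold lower than in kidney (log2 difference -1.27 ± 0.11, adjusted p = 1.58e-10). Muscle held 6.90-fold less Rpl3 than kidney (log2 difference -2.79 ± 0.12, adjusted p = 1.82e-17). Rpl3 made up 0.879% of the summed core counts in left ventricle, 0.306% in muscle and 1.90% in kidney, a measure that library scaling cannot move.

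**Figure D1:**
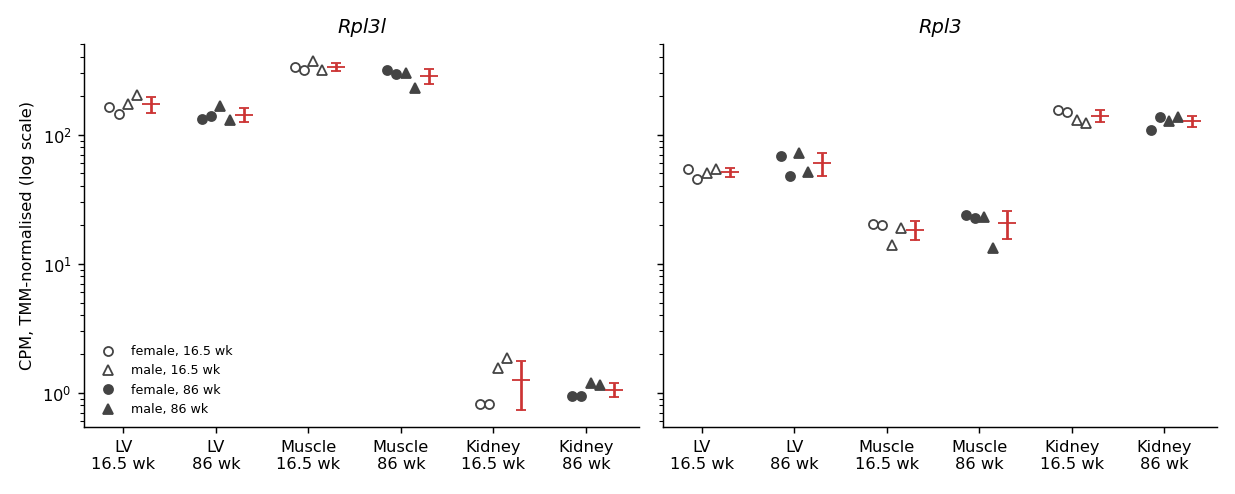
Levels of Rpl3l (left) and Rpl3 (right) in CPM on a log axis, by tissue and age, with 1 point per mouse (circles female, triangles male, open 16.5 weeks, filled 86 weeks) and red bars for mean ± SD (n = 4). Rpl3l was highest in muscle at 231.1 to 369.3 CPM and lowest in kidney at 0.816 to 1.85 CPM, while Rpl3 was highest in kidney.

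To set the 2 genes on a common scale, their CPM were divided by the length of the principal transcript, 1375 bases for Rpl3l and 1351 bases for Rpl3. Rpl3l then made up 73.3% ± 4.40 (SD, n = 8) of the pair in left ventricle, 93.9% ± 1.18 in muscle and 0.863% ± 0.316 in kidney. Dividing by all annotated exon bases (1643 and 3175) in place of the transcript moved these shares to 84.3%, 96.8% and 1.68%, and left their order as it was. The sum of the pair was not constant: it came to 155.2 ± 19.9 CPM per kilobase of transcript in left ventricle, 239.7 ± 29.0 in muscle and 99.6 ± 10.7 in kidney.

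With age, the Rpl3l share in left ventricle was 74.8%, 76.0%, 77.2% and 78.6% in the 16.5-week mice. It was 65.3%, 74.2%, 69.6% and 71.2% in the 86-week mice. Every older mouse lay below every younger one, with means of 70.1% ± 3.74 and 76.6% ± 1.60 (SD, n = 4). An exact two-sided permutation test gave p = 0.0286, the smallest that 4 against 4 can give, and 0.1714 after adjustment over the 6 comparisons of this share by age and by sex, so the difference did not pass the correction. This test was chosen after the values were seen. In left ventricle, cardiomyocyte markers averaged 51988.3 CPM at 16.5 weeks and 45041.5 CPM at 86 weeks, with overlap. Macrophage markers averaged 134.3 and 170.2 CPM, also with overlap. The part of cell types in this difference was not tested. In muscle the shares were 93.2% ± 0.849 at 86 weeks and 94.7% ± 1.10 at 16.5 weeks (exact permutation p = 0.1143, adjusted 0.2286). In kidney they were 0.814% ± 0.105 and 0.913% ± 0.465 (exact permutation p = 0.7143).

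**Figure D2:**
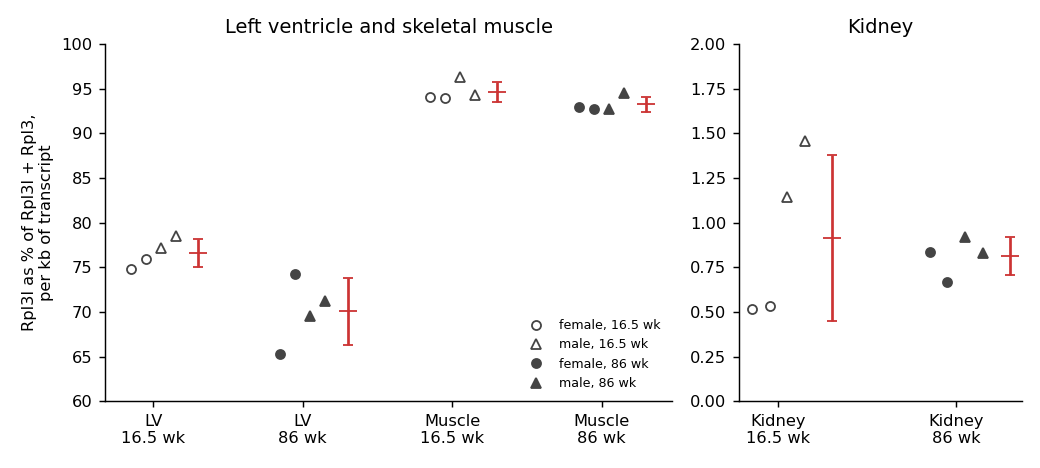
Rpl3l as a percentage of Rpl3l plus Rpl3, both per kilobase of transcript, by tissue and age, with 1 point per mouse and red bars for mean ± SD (n = 4). The left axis starts at 60% and the kidney has an axis of its own, from 0 to 2%. In left ventricle the 86-week mice lie at 65.3 to 74.2% and the 16.5-week mice at 74.8 to 78.6%.

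Whether a mouse with more Rpl3l had less Rpl3 within a tissue depended on what the levels were measured against. With TMM scaling, no relation was detected across the 8 left ventricles (Pearson r = 0.0584, exact permutation p = 0.8841; Spearman rho = 0.1905, p = 0.6646) and r was 0.0152 without the 2 mice farthest from the median. With the age and sex means removed it was 0.5208 in left ventricle (permutation p = 0.1828) and 0.4713 in muscle (permutation p = 0.2371). When both were set against the summed counts of the members other than Rpl3l, a shared denominator that itself holds Rpl3, the left ventricle gave r = -0.9107 (exact permutation p = 0.000496, adjusted over the 2 tissues 0.0009921) and rho = -0.9762 (permutation p = 0.0003968). That relation was r = -0.8832 without the 2 farthest mice (permutation p = 0.01667) and r = -0.8158 with the age and sex means removed (permutation p = 0.008854). Each permutation p with these means removed is approximate, since the removal ties the values to each other. In muscle r was 0.2369 with TMM scaling (permutation p = 0.5519, rho = -0.0238 with p = 0.9768, r = -0.543 without the 2 farthest mice). Against the summed members it was -0.4552 (permutation p = 0.2468, rho = -0.3095 with p = 0.4618), and 0.225 without the 2 farthest mice, so no direction held there. With TMM scaling the muscle value turned to -0.8869 when 86-week mouse 17 was left out (permutation p = 0.02024, adjusted 0.04048).

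Of the other paralogs, Rps27l and Rpl22l1 passed in several tissue comparisons, and with TMM scaling the core genes they resemble passed in none; the difference between paralog and core gene was not tested. Rps27l, also known as a p53 target, had a lowest, median and highest level of 18.6, 20.6 and 25.4 CPM in left ventricle. Muscle gave 24.1, 38.9 and 51.1 CPM, and kidney gave 31.2, 45.2 and 53.5 CPM. Left ventricle lay below every kidney library and overlapped with the lowest muscle library only. The log2 difference was -0.87 ± 0.10 from muscle (adjusted p = 2.62e-08) and -1.06 ± 0.10 from kidney (adjusted p = 3.85e-10), and that between muscle and kidney, -0.19 ± 0.10, did not pass (adjusted p = 0.0997). Rps27 was at 17.7 ± 1.95, 16.8 ± 1.49 and 19.2 ± 2.12 CPM in the 3 tissues (SD, n = 8) and passed in none of the comparisons with TMM scaling (muscle against kidney -0.20 ± 0.09, adjusted p = 0.0654). Of 9 scalings, tools and filters, 3 called Rps27 and 3 called Rpl22 between muscle and kidney.

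Rpl22l1 was at 3.67, 4.24 and 5.02 CPM in left ventricle (lowest, median, highest). Muscle had 6.16, 8.75 and 11.2 CPM and kidney 4.76, 6.68 and 8.18 CPM. It was lower in left ventricle than in muscle by 1.04 ± 0.12 on the log2 scale (2.05-fold, adjusted p = 4.70e-08), with no overlap, and lower than in kidney by 0.63 ± 0.12 (adjusted p = 7.10e-05). Rpl22 itself was at 72.1 ± 9.18, 72.8 ± 7.18 and 71.4 ± 6.42 CPM, with log2 differences of at most 0.03 in size.

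Rpl7l1, a nucleolar relative of Rpl7, was highest in kidney, at 47.7 ± 5.45 CPM against 30.6 ± 3.31 in left ventricle and 25.3 ± 2.99 in muscle. Muscle fell below kidney by 0.91 ± 0.09 on the log2 scale (adjusted p = 1.00e-09) and left ventricle by 0.63 ± 0.09 (adjusted p = 8.01e-07). Rpl7 was at 129.6, 129.8 and 152.0 CPM, and only muscle against kidney passed (log2 difference -0.23 ± 0.09, adjusted p = 0.0412). Rpl10 rose from 73.2 ± 8.84 CPM in left ventricle through 93.2 ± 16.1 in muscle to 121.0 ± 17.7 in kidney, with every pair past the threshold, while its retrogene Rpl10l, known from testis, was at 0.311, 0.413 and 0.280 CPM, with muscle against kidney past the threshold (adjusted p = 0.0493). Rpl39l was at 0.196, 0.241 and 0.085 CPM and was listed at 0 in 1 muscle library. Its log2 difference of 1.26 ± 0.43 between left ventricle and kidney passed (adjusted p = 0.0219), yet its level per kilobase lay below the 95th percentile of 1100 olfactory receptor genes in all 3 tissues, the single member of which this was true. Rpl39 was at 24.5, 26.4 and 30.4 CPM and was lower in left ventricle than in kidney by 0.31 ± 0.11 (adjusted p = 0.0311).

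Several members annotated as pseudogenes differed between tissues. Rps4l was at 3.99, 7.01 and 11.6 CPM in left ventricle (lowest, median, highest). Muscle had 0.505, 1.11 and 1.52 CPM and kidney 3.74, 4.67 and 6.08 CPM. Every muscle library lay below every library of the other tissues. It was 6.91-fold higher in left ventricle than in muscle (log2 difference 2.79 ± 0.22, adjusted p = 4.56e-11) and 4.59-fold lower in muscle than in kidney (log2 difference -2.20 ± 0.22, adjusted p = 1.99e-09). Rps4x, the X-linked core gene, was at 144.5 ± 16.7, 125.2 ± 19.8 and 149.2 ± 19.9 CPM, and its one call was muscle below kidney by 0.26 ± 0.09 (adjusted p = 0.0263). Rps3a3, whose counts are uncertain because of its copies, was 3.23-fold higher in left ventricle than in muscle (3.61 ± 0.618 against 1.13 ± 0.468 CPM, adjusted p = 1.61e-07) and 1.69-fold higher than in kidney (adjusted p = 0.00282). Rpl32l was lower than in kidney (0.886 ± 0.204 CPM) by 2.76 ± 0.30 in left ventricle (adjusted p = 1.41e-08) and by 2.14 ± 0.29 in muscle (adjusted p = 5.65e-07).

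Per kilobase of exon, averaged over all libraries, the highest members were Rps3a1 (164.5 CPM per kilobase), Rpl4 (155.6) and Rps15 (148.4), and the lowest were Rpl39l (0.209), Rpl10l (0.327) and Rpl32l (1.02). The order differed by tissue. In muscle Rpl4 (200.5) and Rpl3l (188.5) were above Rps3a1 (166.6), and in kidney Rpl3l (0.705) was above only Rpl39l (0.102) and Rpl10l (0.274). These ranks hold for division by all annotated exon bases and can change with the principal transcript. For Rps3a1 both lengths are 977 bases, while Rps12 has 2027 exon bases and a transcript of 584. The core members summed to 0.634% ± 0.0239 of all counts in left ventricle (0.603 to 0.683%). Muscle gave 0.511% ± 0.0582 (0.431 to 0.601%) and kidney 0.860% ± 0.0629 (0.740 to 0.935%). The tissues did not overlap in this share as deposited, nor after leaving out the genes of the mitochondrial genome, which took 15.6% of the counts in muscle and 27.9% in left ventricle (0.880%, 0.605% and 1.12% of the remaining counts). After TMM scaling they did overlap, at 6318 ± 672, 6363 ± 1006 and 7027 ± 704 CPM. The level of the whole set between tissues therefore cannot be given apart from the scaling.

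**Figure D3:**
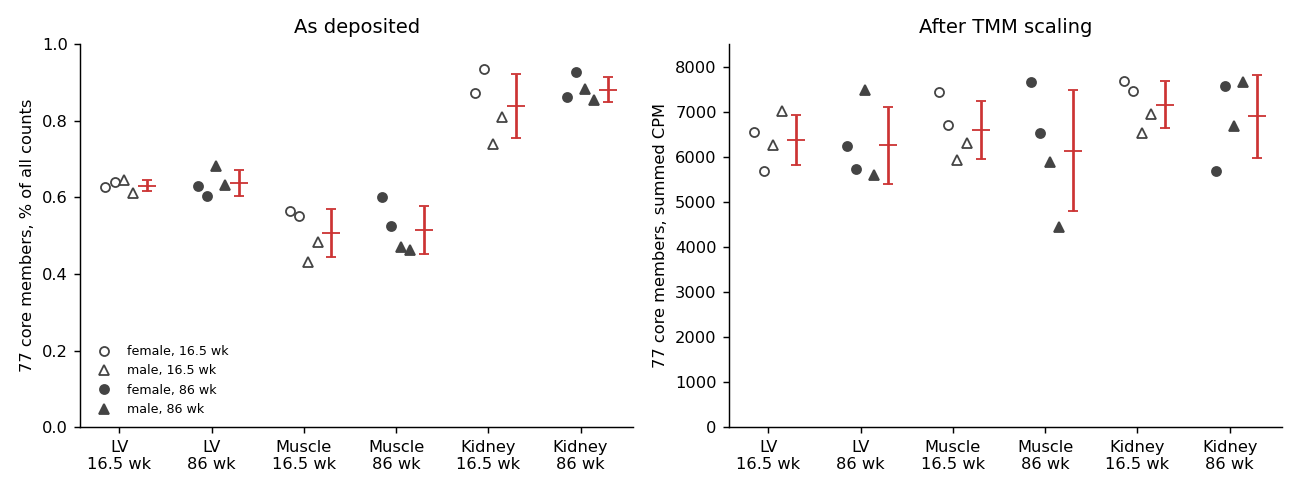
Summed level of the 77 core members in each library, as a percentage of all deposited counts (left) and in CPM after TMM scaling (right), with 1 point per mouse and red bars for mean ± SD (n = 4). Kidney lies highest and muscle lowest on the left, while on the right all 3 tissues overlap between 5692 and 7470 CPM.

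Left ventricle and muscle differed in 27 of the 89 members, 30.3%, where 27.8% of all 45182 genes tested were called. Of these, 15 were higher in left ventricle (16% of all genes were) and 12 lower (11.8% of all genes). Of the core genes 12 were higher and 9 lower: 6 and 4 in the small subunit, 6 and 5 in the large subunit, and 0 in the stalk. The median log2 difference was 0.03 over the core genes and -0.12 over all genes. Left ventricle against kidney called 39 of the 89, 43.8%, against a background of 35%, with 7 higher (background 15%) and 32 lower (background 20%). The core medians leaned the same way, at -0.15 against 0.10 for all genes. The large subunit had 20 of 43 genes lower and 2 higher, and the small subunit 7 of 31 lower and 1 higher, a contrast between subunits that was not tested. Muscle against kidney called 49 of the 89, 55.1%, against a background of 45.5%, with 12 higher (background 22.6%) and 37 lower (background 22.9%). Here 20 large-subunit and 12 small-subunit genes were lower and 4 of each were higher, with a core median of -0.18 against 0.24.

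The direction of these counts moved with the scaling. Left ventricle against muscle had 15 higher and 12 lower, but 15 and 7 with RLE size factors, 15 and 8 with DESeq2, 20 and 8 with no filter on low counts, 15 and 33 when only genes of at least 1 CPM in 4 libraries were kept, 27 and 17 when scaled to the summed members, and 66 and 6 with no scaling factors. Left ventricle against kidney went from 7 higher and 32 lower to 29 and 22 when scaled to the summed members, 19 and 28 with the 1 CPM filter and 1 and 71 with no factors. Muscle against kidney went from 12 and 37 to 31 and 28, 31 and 18, and 1 and 85 in the same order. The median of all genes moved too, to 0.20, -0.18 and -0.36 with no factors. Call and direction were also compared over 9 tools, scalings and filters, the run with no factors among them. In all 9, 21 members kept both for left ventricle against muscle, 20 for left ventricle against kidney and 19 for muscle against kidney.

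Left ventricle was higher than muscle in 15 of those 21, among them Rpl3, Rpl19, Rpl38, Rpl41, Rps10, Rps13, Rps15 and Rps29. It was lower in 6: Rpl3l, Rpl22l1, Rps27l, Rpl4, Rps20 and Rps26. Rpl4, a large-subunit protein lining the exit tunnel, stood at 210.9, 247.2 and 288.9 CPM in left ventricle (lowest, median, highest) and at 299.6, 405.8 and 484.4 CPM in muscle, without overlap. It was 1.65-fold lower in left ventricle (log2 difference -0.72 ± 0.09, adjusted p = 2.99e-07) and rose as a share of the core counts from 3.85% ± 0.112 in left ventricle and 4.15% ± 0.162 in kidney to 6.36% ± 0.300 in muscle. Rps26, at the mRNA exit, was lower in left ventricle than in muscle by 0.59 ± 0.09 (29.7 ± 2.87 against 44.8 ± 6.48 CPM), and Rps20 by 0.55 ± 0.09 (53.3 ± 4.37 against 78.1 ± 11.7 CPM, adjusted p = 2.87e-05). Rps29 was higher by 0.49 ± 0.10 (35.3 ± 4.19 against 25.4 ± 4.70 CPM, adjusted p = 0.000188). Rps10 was higher by 0.46 ± 0.11 (38.9 ± 5.52 against 28.4 ± 5.45 CPM).

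Against kidney, Rpl3l was the single member higher in a striated tissue under all 9 settings, in left ventricle and in muscle alike. The run with no scaling factors, where no other member was called higher than kidney, fixed this. Other settings called more members higher. Left ventricle was lower in 19 members, including 15 core genes, and muscle in 18, including 14 core genes. Rps19, the protein most often mutated in Diamond-Blackfan anaemia, was at 64.3 ± 9.83 CPM in left ventricle, 54.5 ± 7.83 in muscle and 101.2 ± 10.3 in kidney. Its log2 difference from kidney was -0.66 ± 0.10 in left ventricle (adjusted p = 1.99e-06) and -0.90 ± 0.10 in muscle (adjusted p = 9.05e-09), and its share of the core counts was 1.02%, 0.861% and 1.44%. Rpl41, the shortest of the ribosomal proteins, was lower than in kidney (108.8 ± 13.4 CPM) by 0.51 ± 0.10 in left ventricle and by 0.85 ± 0.10 in muscle (adjusted p = 7.09e-08). Rpl35a and Rpl7a were lower by 0.58 ± 0.08 and 0.51 ± 0.09 in left ventricle and by 0.63 ± 0.08 and 0.57 ± 0.09 in muscle. Rpl11, which binds Mdm2 when ribosome assembly fails, was lower by 0.50 ± 0.10 and 0.58 ± 0.10. Rpl36 and Rps13 were higher in left ventricle than in kidney, by 0.42 ± 0.09 and 0.37 ± 0.09 (adjusted p = 0.000273 and 0.00122), and both calls were lost in the 86-week mice alone (adjusted p = 0.429 and 0.0939). That fit held only 4 mice and called fewer members for every pair of tissues, so the loss does not show a difference between the ages. The 3 stalk genes, Rplp0, Rplp1 and Rplp2, passed in no tissue comparison in the edgeR fit with TMM scaling.

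**Figure D4:**
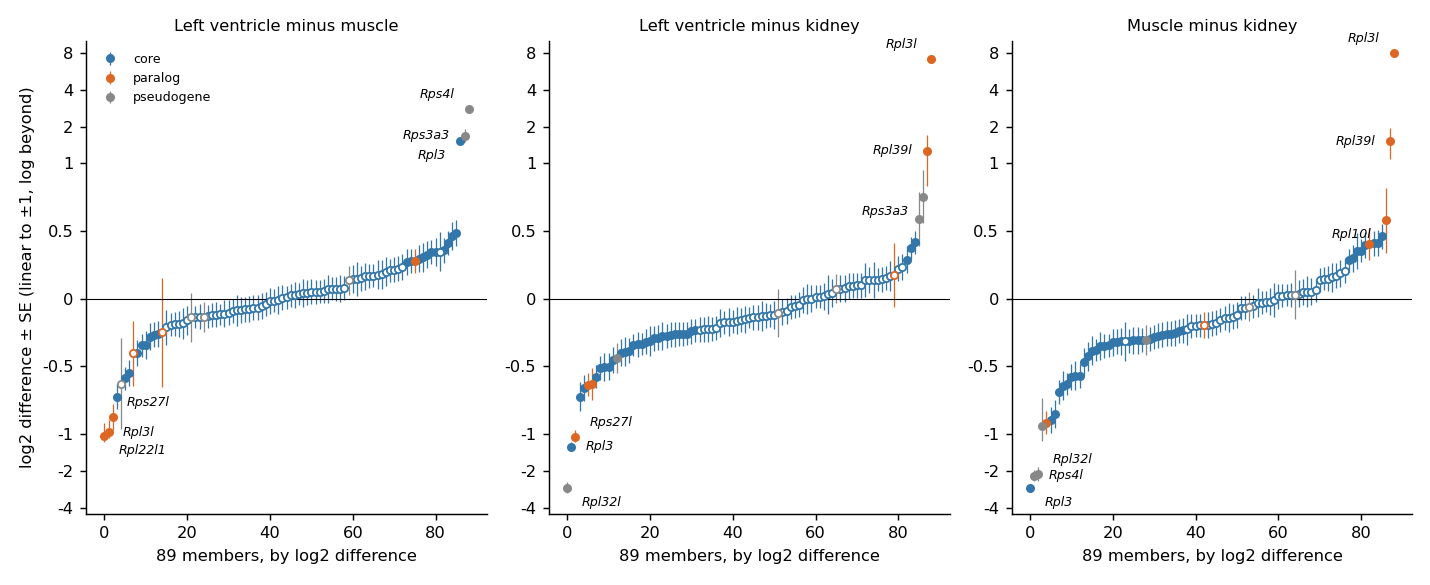
Log2 differences ± SE of the 89 members for the 3 pairs of tissues, in order of size, on an axis that is linear to ±1 and logarithmic beyond. Filled points passed an adjusted p of 0.05 and open points did not. Most core genes lie within ±0.5, while Rpl3l reaches 7.12 and 8.10 against kidney.

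No member passed the threshold for age in any tissue. In left ventricle 0 of 89 were called (0.0741% of all genes were), and 1 had an unadjusted p under 0.05. That was Rpl3l, at 164.6, 144.7, 173.3 and 203.6 CPM at 16.5 weeks and at 131.5, 140.4, 167.3 and 129.8 CPM at 86 weeks, groups that overlapped. Its log2 difference was -0.27 ± 0.11 and did not pass (adjusted p = 0.9997). Rpl3, next in order, was at 54.4, 45.0, 50.4 and 54.6 CPM and then at 68.7, 47.9, 71.9 and 51.5 CPM, a log2 difference of 0.23 ± 0.13 (adjusted p = 0.9997). DESeq2 and limma-voom also called 0 members for age in each tissue.

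In muscle 0 of 89 passed for age (background 0.0183%), with 2 at an unadjusted p under 0.05. Rps14, a protein of the small-subunit platform, was at 83.5, 68.2, 77.1 and 76.0 CPM at 16.5 weeks and at 86.3, 64.8, 45.7 and 29.0 CPM at 86 weeks. Its log2 difference was -0.49 ± 0.19 (adjusted p = 0.845), and its 2 lowest values were the older males. Without mouse 17 it was -0.29 ± 0.15 (adjusted p = 0.913). Rps12l1, annotated as a pseudogene and likewise uncertain because of its copies, was at 0.465 to 0.581 CPM at 16.5 weeks and 0.684 to 1.07 CPM at 86 weeks, without overlap (log2 difference 0.66 ± 0.25, adjusted p = 0.846). In kidney 0 of 88 passed (background 0.112%), and 0 had an unadjusted p under 0.05. The 2 nearest were Rpl22l1 (-0.21 ± 0.13) and Rpl36a (0.15 ± 0.09). The core medians for age were -0.03 in left ventricle, -0.08 in muscle and -0.01 in kidney. That of muscle was -0.03 without mouse 17 and that of kidney 0.07 without mouse 11. A test of whether the age change differed between tissues called 0 of 89 (background 0.0398%), with 0 at an unadjusted p under 0.05 and 0 called by DESeq2.

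**Figure D5:**
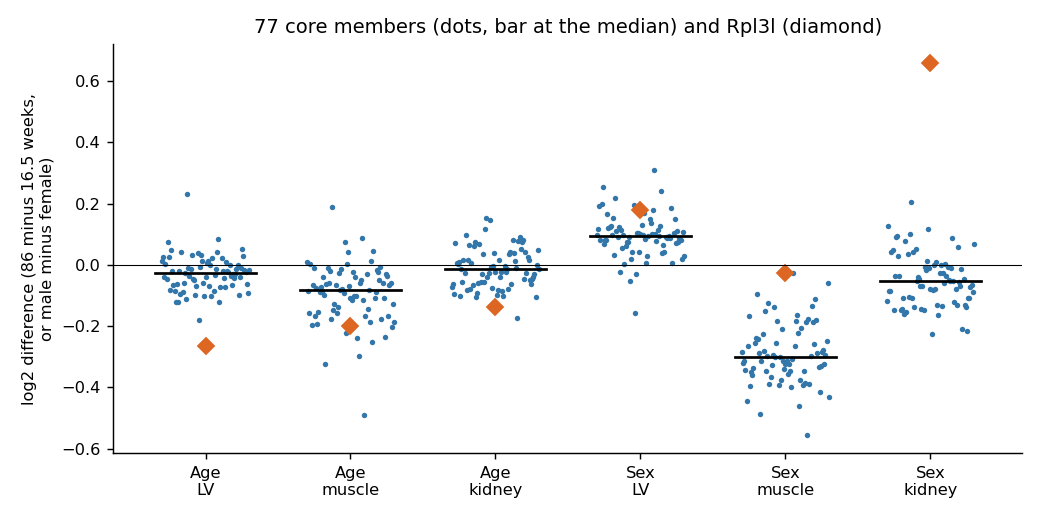
Log2 differences by age (86 minus 16.5 weeks) and by sex (male minus female) in each tissue, with 1 dot per core member, a bar at their median and a diamond for Rpl3l. Medians for age lie between -0.08 and -0.01, while for sex in muscle all 77 core members lie below 0, with a median of -0.30.

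In muscle no member passed for sex by edgeR, and the core genes had differences of 1 sign with TMM scaling. The summed core share of counts was 0.564, 0.550, 0.601 and 0.525% in the females and 0.431, 0.483, 0.472 and 0.462% in the males, without overlap. With TMM scaling the females summed to 6529 to 7662 CPM and the males to 4449 to 6303 CPM. All 77 core members had a negative male minus female difference, with a median of -0.30 on the log2 scale, where the median of all genes was 0.03. The sign held for all 77 with RLE factors, with DESeq2, with limma-voom and with no factors, for 76 with the 1 CPM filter, and for 41 when scaled to the summed members, which sets their sum equal. By edgeR 0 of 89 members passed (background 1.36%), DESeq2 and limma-voom called 1 each (Rps2), and 53 core members had an unadjusted p under 0.05 and were lower in males (background 4.89%). For 34 core members every male lay below every female, against 3.32% of all genes. The members come from the same mice and share a library scaling, so these counts are not independent observations. The same limit applies to such counts for sex in the other tissues and between tissues. Without 86-week mouse 17, 75 of 77 differences were negative with a median of -0.24, and 47 members had an unadjusted p under 0.05. Rps2, a small-subunit protein at the mRNA entry site, was nearest to passing, at 247.5, 204.1, 214.9 and 200.1 CPM in females and 151.4, 183.3, 148.2 and 97.8 CPM in males (log2 difference -0.55 ± 0.13, adjusted p = 0.0517). Without mouse 17 its difference was -0.45 ± 0.09 (adjusted p = 0.0551). Rpl31 followed, at 61.4 to 79.1 and 45.3 to 57.0 CPM (-0.39 ± 0.10, adjusted p = 0.0974).

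The total counts of the muscle libraries separated the sexes too, while the marker sums given here overlapped. The females' libraries held 83.0 M to 103.8 M counts and the males' 59.1 M to 71.0 M, without overlap. Summed markers overlapped between females and males for skeletal fibres (159122 to 169333 and 118400 to 183404 CPM, 7 of 7 genes with a negative difference), fibroblasts (250.2 to 453.5 and 130.8 to 370.5 CPM, 4 of 4) and erythroid cells (42.0 to 98.0 and 22.3 to 46.6 CPM, 4 of 4). The part of depth and of these cells in the core difference was not tested. Endothelial markers (104.7 to 142.1 and 61.5 to 127.2 CPM, 4 of 4 negative) overlapped as well. Means went the other way for T cell markers (4.81 CPM in females, 5.30 in males) and satellite cell markers (4.65 and 5.36 CPM), with overlap. Rpl3l was at 315.9 ± 14.6 CPM in females and 303.6 ± 57.0 in males.

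In left ventricle 0 of 89 members passed for sex (background 0.871%) and 0 had an unadjusted p under 0.05, although 73 of 77 core members had a positive difference, with a median of 0.09. Of all genes, 46.3% had a positive difference, with a median of -0.02. The members nearest to passing were Rpl13a (0.25 ± 0.12) and Rps14 (0.31 ± 0.15). In kidney 1 of 88 passed (background 7.58%), Rps27l. It was at 39.8, 39.9, 31.2 and 41.0 CPM in females and at 52.5, 49.8, 49.4 and 53.5 CPM in males, without overlap, a log2 difference of 0.41 ± 0.09 (adjusted p = 0.00888). The call was lost when all 24 libraries shared a single fit (adjusted p = 0.0620). Rpl3l did not overlap between the sexes in kidney either, at 0.816 to 0.943 CPM in females and 1.16 to 1.85 CPM in males, but did not pass (0.66 ± 0.21, adjusted p = 0.0720), though it did with DESeq2 (adjusted p = 0.0369) and in the single fit (adjusted p = 0.00727). The 7 skeletal fibre markers summed to 17.2 to 29.0 CPM in female and 9.76 to 20.3 CPM in male kidneys, with overlap. Myh1 was at 11.2 to 20.9 CPM in females and 1.79 to 2.26 CPM in males, while Myh4 was at 1.54 to 2.33 CPM in females and 2.28 to 10.4 CPM in males. The part of muscle RNA in the kidney values of Rpl3l was not tested. In the kidney core members, leaving out mouse 11 moved the median from -0.05 to -0.14 and the number with a negative difference from 58 to 70 of 77. Over all genes and with mouse 11 kept, the kidney median was -0.02 and 47.6% of differences were positive. Without that library 3 members passed, Rps27l higher in males and Rpl7 and Rps4x lower (-0.30 ± 0.06 and -0.29 ± 0.08, adjusted p = 0.0141 and 0.0364). A test of whether the sex difference varied between tissues, added after the values were seen, called 0 of 89 members (background 1.99%), with 39 members at an unadjusted p under 0.05 against 9.82% of all genes.

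The rest of the translation machinery was read from lists. Of the ribosomal protein genes that the naming rule missed, Rpl36al, Fau and Rack1 were lower in left ventricle than in kidney, by 0.63 ± 0.08, 0.59 ± 0.09 and 0.30 ± 0.09. Of 10 elongation factor genes, 7 passed between left ventricle and muscle, 2 higher and 5 lower, where 27.8% of all genes passed (16% higher, 11.8% lower). Eef1a2, the elongation factor isoform of muscle and neurons, was at 601.3 ± 67.4 CPM in left ventricle and 788.8 ± 121 in muscle but 0.667 ± 0.183 in kidney. Eef1a1, its widespread counterpart, was at 289.9 ± 50.7, 120.4 ± 32.6 and 1530 ± 125 CPM. The order of tissues in this pair was that of Rpl3l and Rpl3. Eef2k, the kinase that inhibits elongation, was lower in left ventricle than in muscle by 1.35 ± 0.09 and Eef1g by 0.86 ± 0.09, while Eif5a2 was higher by 0.47 ± 0.10.

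Of 37 initiation factor genes, 26 passed between muscle and kidney, 18 higher and 8 lower, where 45.5% of all genes passed (22.6% higher, 22.9% lower), with Eif3j1 higher in muscle by 2.02 ± 0.10 and Eif2s2 by 1.77 ± 0.10, and Eif1a and Pabpc1 lower by 1.21 ± 0.09 and 1.18 ± 0.12. Of 44 ribosome assembly genes, 29 passed in that comparison, 18 higher and 11 lower, against the same 45.5%. Rrp12 (2.16 ± 0.09) and Tsr1 (0.90 ± 0.10) were higher in muscle, while Sbds, the Shwachman-Diamond protein, was lower by 1.13 ± 0.09 and Utp20 by 0.98 ± 0.08. Between left ventricle and muscle, 24 of the 44 were lower and 2 higher (all genes, 11.8% and 16%). Of 13 RNA polymerase I genes, 11 passed between left ventricle and muscle (27.8% of all genes), 7 higher (Polr1e 1.38 ± 0.09, Taf1a 0.80 ± 0.07) and 4 lower (Taf1d -1.04 ± 0.08, Polr1d -0.40 ± 0.09).

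Of 20 genes that control ribosomal protein synthesis, 16 passed between muscle and kidney, 10 higher and 6 lower (45.5% of all genes passed). Eif4ebp1, a translation repressor, was higher in muscle by 1.56 ± 0.11 and Akt1s1 by 1.11 ± 0.10, and Mtor was lower by 2.15 ± 0.10 and Eif4ebp3 by 1.08 ± 0.22. A list of 11 genes held hosts of small nucleolar RNAs and also Rmrp, which is not such a host. Of these 11, 9 passed in that comparison (45.5% of all genes), 2 higher (Snhg5 1.30 ± 0.10, Snhg6 0.86 ± 0.10) and 7 lower (Rmrp -1.13 ± 0.15, Snhg12 -1.06 ± 0.10). The 78 mitochondrial ribosomal protein genes had 40 higher and 8 lower in left ventricle, against muscle and, counted separately, against kidney, and 27 higher and 24 lower in muscle against kidney. The shares of all genes were 16% higher and 11.8% lower, 15% and 20%, and 22.6% and 22.9% in these comparisons. In that last comparison Mrpl53 (2.22 ± 0.15) and Mrps28 (1.41 ± 0.10) were higher in muscle, and Mrps6 (-2.15 ± 0.11) and Mrps35 (-1.28 ± 0.09) lower. For age, 0 genes of any of these lists passed in any tissue.

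Across the 16 left ventricle and muscle libraries, with each tissue's mean removed, the genes whose level followed Rpl3l most closely among 7334 genes of at least 10 CPM were Uqcrc1 (r = 0.949), Fyco1 (0.942), Dele1 (0.935), Sucla2 (0.928) and Ipo13 (0.927). The core members correlated with Rpl3l at 0.15 to 0.87 with a median of 0.62, and Rpl3 was the lowest of them. These values are a description, since all libraries share the TMM scaling.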

How the data were processed

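The libraries are of rRNA-depleted total RNA, 1 from each of 3 tissues in 8 mice. The authors deposited a table of read counts per gene, not normalized. STAR 2.7.6a, StringTie 2.1.1 and the genome build GRCm38.p6 are named per the submitters' processing notes, and whether counting used strand is not given in the sources used here. Of the 55401 identifiers, 54349 matched GENCODE mouse release 21, which gave gene positions and exon lengths. Promoters came from RefSeq (GRCm38.p6).

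Genes were filtered with filterByExpr, scaled by TMM and tested with edgeR 4.0.16 (R 4.3.3), using quasi-likelihood F tests with Benjamini-Hochberg adjustment over all genes tested and a threshold of 0.05. Tissues were compared in a fit of 24 libraries, and age and sex within each tissue, with both as terms (5 residual degrees of freedom). The age change was also compared between tissues. Copies were found with blastn 2.17.0+. The fits were tested on simulated counts.

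The members and lists were chosen with earlier results of these data known. Named genes were the paralog pairs, per pair of tissues the 3 called members with the largest fold each way, the called members or else the 2 smallest p for age and sex, the 3 highest and 3 lowest members per kilobase, up to 2 called genes each way per list, and the 5 genes most like Rpl3l. Other core genes, the share tests, the members called under 9 settings and the test of sex between tissues were chosen after the values were seen. Alternatives were DESeq2 1.42.0, limma-voom 3.58.1, other scalings and filters, each age alone, each mouse left out, a fold threshold of 1.5 and the mouse as a block. Added after seeing the data were no scaling factors, 2 libraries left out and copies added. The labels name the same animal in each tissue, and its deviations from the group means correlated between tissues at -0.0075 to 0.366.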

Additional observations from a re-analysis of the deposited data

Results flagged for a closer look

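In 84 groups of 4 libraries, from 14 measures in 6 groups of mice, 5 held a library far from the other 3, and chance gives about 1 in 20. Of these, 4 were in muscle. The Rpl3l share, here per kilobase of exon, was 97.1329% in 86-week mouse 17 against 96.2 to 96.3% in the other older mice, and 98.0792% in 16.5-week mouse 19 against 96.8 to 97.0%. Rpl3 was at 13.182 CPM in 86-week mouse 17 against 22.7 to 23.6 CPM in the other older muscles. Rps27l was at 51.078 CPM in 16.5-week mouse 14 against 36.8 to 39.0 CPM. In left ventricle, Rps29 was at 42.502 CPM in 86-week mouse 14 against 31.3 to 31.7 CPM. The muscle of 86-week mouse 17 was also the one with the highest cardiomyocyte marker level (455 CPM), whose part in its values was not tested.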

How the results depend on the processing

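With the mouse as a block, 27, 38 and 48 members were called for left ventricle against muscle, left ventricle against kidney and muscle against kidney, all of them shared with the fits without the block, and no named gene's call changed. Leaving out each mouse gave 18 to 30, 28 to 43 and 37 to 57. In the 86-week mice alone they were 9, 19 and 21, against a 1.5-fold change 6, 4 and 8, and with no scaling factors 72, 72 and 86. Left ventricle against muscle gave 44 when scaled to the members and 48 with the 1 CPM filter. With no factors, Rpl4 and Rps20 turned to -0.14 and -0.19 in muscle against kidney.

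For sex in muscle the count of 0 became 1 with DESeq2, limma-voom, no mitochondrial genes, all 24 libraries in a single fit, and without 16.5-week mouse 20 (0 to 1 over mice left out), 3 with the 1 CPM filter and 12 with no factors. For sex in kidney the count of 1 became 2 with DESeq2 and scaled to the members, 3 with the 1 CPM filter, without 86-week mouse 11 (1 to 3 over mice left out) and without both libraries that stood apart, and 8 with no factors. The counts for age, and for sex in left ventricle, were 0 in every alternative run.

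The correlation of Rpl3l and Rpl3 turned negative when scaled to the members, to -0.9107 in left ventricle and -0.4552 in muscle, to -0.8158 and -0.456 with age and sex means removed as well (with TMM scaling, removing them gave 0.5208 and 0.4713), and to -0.8832 in left ventricle without the 2 farthest mice. In muscle it was -0.543 without the 2 farthest mice. Leaving out each mouse gave -0.0936 to 0.3903 in left ventricle and -0.8869 to 0.7942 in muscle. The cause was not tested. Rpl3l in kidney rested on 61 to 145 counts per library.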
